A study of Mus musculus with 6 samples.

Results

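Lipid droplet and fatty acid binding genes were compared across mouse chondrocytes given transforming growth factor alpha (TGF-α), with or without gefitinib, and across their controls. The group held 10 genes of the 44788 in the count table, taken by symbol: Plin2, Plin3, Plin4, Fabp3, Fabp5, Dbi, Lpl, Cd36, Pnpla2 and Pparg. Plin4, Fabp5 and Dbi were among them because their counts in the gefitinib libraries stood above control. For these 3 genes the values below are a description without a test. The other 2 comparisons share libraries with that one, so no test of these genes is given in them either.

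The cells came from the femoral epiphysis, the cartilage end of the thigh bone, of C57BL/6 mice at postnatal day 1, and grew in DMEM/F12 with 10% FBS. One group of 2 libraries received 10 µM gefitinib, an inhibitor of the epidermal growth factor receptor (EGFR) kinase, for 30 min and then gefitinib with 10 ng/ml TGF-α, an EGFR ligand, for 48 h. A second group of 2 received the same TGF-α dose alone for 48 h, and 2 control libraries received neither, all in 0.1% DMSO per the treatment protocol. The series design instead names PBS for the control, and whether the mice or the cell passage is meant by its "P2" is not stated. Cells given gefitinib without TGF-α were not analysed here, so every gefitinib library also had TGF-α. No label says that the 2 libraries of a group came from separate animals or cultures, so p-values measure the spread between libraries, which may be technical.

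Total counts were 12317407 to 16096263 per library. Dusp6, a phosphatase gene induced by ERK signalling downstream of EGFR, was at 5.002 and 4.72 CPM (counts relative to the TMM-adjusted library total) with TGF-α plus gefitinib, 48.4 and 49.2 CPM with TGF-α and 5.54 and 6.56 CPM in control. Its libraries with TGF-α alone stood apart from the other 4. Egfr itself was at 54.9 and 53.9 CPM with TGF-α plus gefitinib, 72.0 and 70.3 CPM with TGF-α and 69.2 and 65.1 CPM in control. All 12 chondrocyte markers examined, among them Col2a1, Acan and Sox9, were tested. They summed to 65140 to 68035 CPM with TGF-α plus gefitinib, 38148 to 39376 CPM with TGF-α and 75008 to 80116 CPM in control. All 12 were higher with TGF-α plus gefitinib than with TGF-α and lower with TGF-α than in control, and 1 was higher and 6 lower with TGF-α plus gefitinib than in control (edgeR, adjusted p under 0.05). Over all tested genes, 17.0% were higher and 16.9% lower in the first of these comparisons. The shares were 15.9% higher and 14.0% lower in the second, and 5.27% higher and 4.26% lower in the third.

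Neutral lipid is stored in droplets whose surface is coated by perilipins, and the balance between this coat and lipases governs how fast fatty acids are released. Lipoprotein lipase frees fatty acids outside the cell, CD36 takes part in their uptake, and fatty acid binding proteins (FABPs) and acyl-CoA binding protein carry them and their CoA esters inside it. PPARγ is a nuclear receptor activated by fatty acid ligands, and in adipocytes it drives many genes of this group. Cartilage has no blood vessels, its chondrocytes draw largely on glucose, and PPARγ has been studied in them as a regulator of cartilage upkeep.

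The promoters of Plin2 and Plin4 are shown because they are the droplet coat genes with a match to one of the motifs searched, the Plin3 window having none. Each holds 250 bases before and 50 bases after a RefSeq start site in build GRCm38.p6, on the minus strand. Capitals mark the letters AGGTCA (the nuclear receptor half-site), TGANTCA (AP-1), CACGTG (an E-box) and TATAA, each on either strand.
Plin2, chr4:86670010-86670309: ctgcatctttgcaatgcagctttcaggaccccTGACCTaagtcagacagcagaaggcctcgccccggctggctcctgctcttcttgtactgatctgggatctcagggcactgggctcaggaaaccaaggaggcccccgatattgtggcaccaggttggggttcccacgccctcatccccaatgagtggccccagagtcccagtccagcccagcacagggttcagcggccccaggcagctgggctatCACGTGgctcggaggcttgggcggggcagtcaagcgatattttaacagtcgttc
Plin4, chr17:56109733-56110032: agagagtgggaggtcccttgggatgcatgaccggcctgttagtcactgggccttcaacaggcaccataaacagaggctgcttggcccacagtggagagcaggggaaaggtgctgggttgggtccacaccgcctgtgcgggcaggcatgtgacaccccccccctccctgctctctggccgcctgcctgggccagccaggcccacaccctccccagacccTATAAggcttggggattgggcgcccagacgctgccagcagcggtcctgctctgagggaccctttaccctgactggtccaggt
The Plin2 window held a half-site starting at -218 from the start site and an E-box at -4. The Plin4 window held TATAA at -32. RefSeq gave 11 promoters for 8 of the 10 genes, Lpl and Fabp5 being the genes without one.

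Over those 11 windows, AGGTCA was found in 4, belonging to Plin2, Cd36 and 2 of the 3 windows of Pparg, against 16.3% of all 32851 mouse promoters of the same length. The direct repeat AGGTCANAGGTCA, which PPAR and RXR bind as a pair, was in 0 of 11 and in 0.0396% of all promoters. It contains the half-site, so the searches overlap. TGANTCA was in 0 of 11 and in 7.81% of all, CACGTG in 1 of 11 and in 7.15%, and TATAA in 2 of 11 and in 24.9%. The Plin2 window was 60.7% GC with 10 CpG and the Plin4 window 65.0% with 7, against medians over all promoters of 52.7% GC and 7 CpG.

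Both gefitinib libraries lay above both TGF-α libraries in 9 genes, with overlap for Cd36, and 33.5% of all tested genes did so, with 32.3% below and 65.8% not overlapping in either direction. They lay above both control libraries in 9 genes, Cd36 on 1 to 3 reads among them, with overlap for Pparg, against 26.5% of all tested genes above, 25.6% below and 52.1% in either direction. Part of the choice of genes used that second contrast. The first contrast shares its gefitinib libraries and counts the picked Plin4, Fabp5 and Dbi, so nothing is read from either count. TGF-α libraries lay below both controls in 6 genes and above them in 3 (Plin3, Plin4 and Cd36), with overlap for Plin2, against 31.3% of tested genes below, 32.8% above and 64.1% in either direction. Cd36 was placed there on 7 and 1 reads with TGF-α against 0 and 1 in control. It did not pass the low-count filter that the tested genes passed. This count shares its control libraries with the choice of genes.

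Of the 10 genes, 9 passed a filter on low counts, and 6 of those had not been picked on their level with gefitinib and were tested with edgeR's quasi-likelihood model over all 15362 genes that passed. TGF-α plus gefitinib against TGF-α gave 3 of 6 higher at an adjusted p under 0.05 (Plin2, Lpl and Pnpla2) and 0 lower. Over all tested genes 17.0% were higher, 16.9% lower and 34.0% called in either direction. Against control, TGF-α plus gefitinib gave 3 of 6 higher (Plin2, Plin3 and Lpl) and 0 lower, where 5.27% of all genes were higher, 4.26% lower and 9.52% called either way. TGF-α against control gave 2 of 6 lower (Lpl and Pparg) and 0 higher, where 14.0% of all genes were lower, 15.9% higher and 29.9% called either way. The 9 genes include Fabp3, which reached the filter through both gefitinib libraries and 1 control. All 10 genes, the 6 tested included, were chosen with earlier results of these data known. No enrichment is therefore read from these shares.

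**Figure D1:**
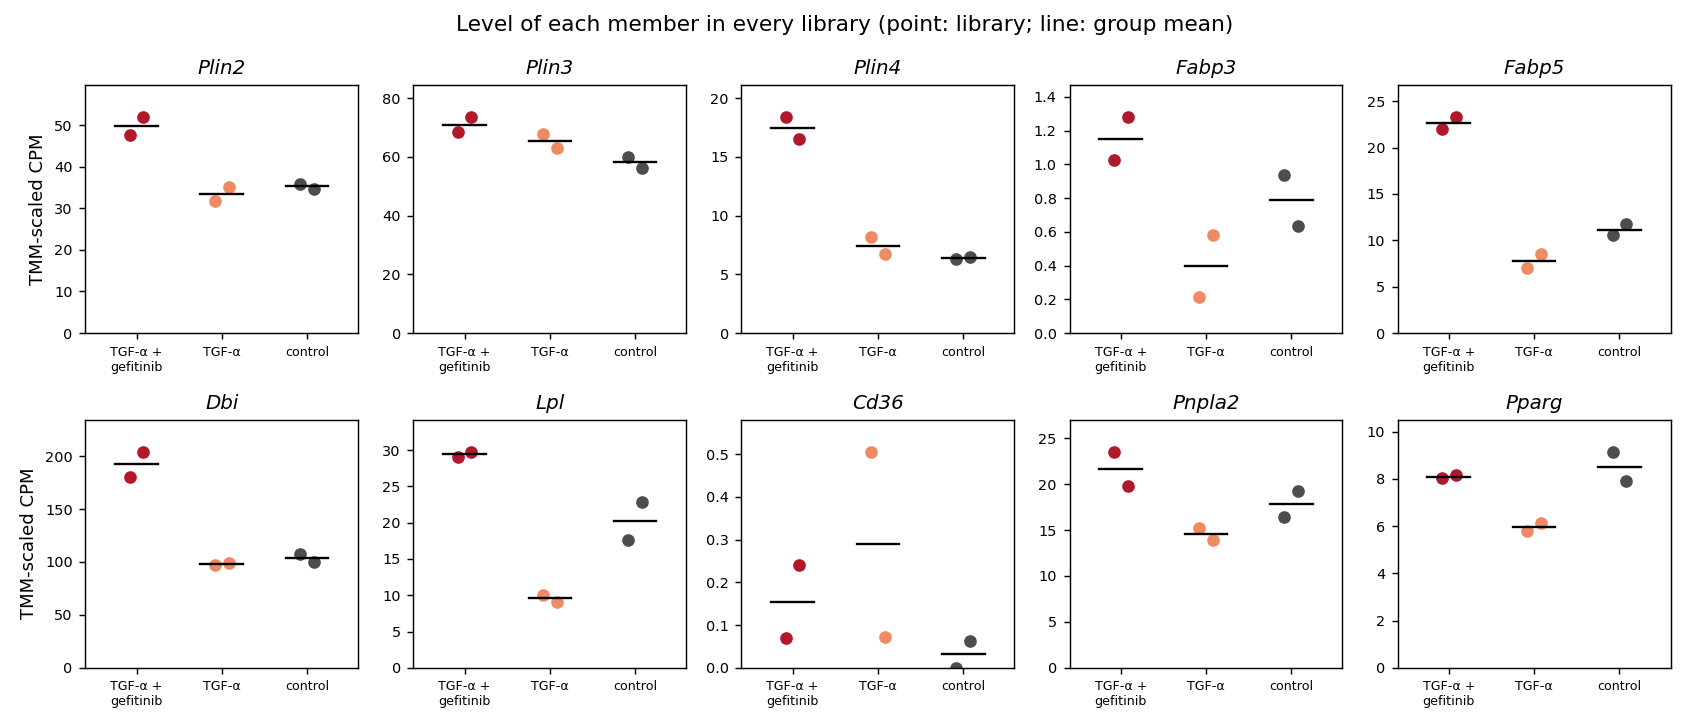
Level of each of the 10 genes in TMM-scaled CPM (linear axis from 0) for TGF-α plus gefitinib, TGF-α and control; each point is 1 library and each line the mean of 2. The gefitinib libraries are highest for Dbi, Plin4 and Fabp5, which were picked for standing above control. They are also highest for Plin2, Plin3, Fabp3, Lpl and Pnpla2. Lpl has 3 separate levels and Pparg is low with TGF-α alone.

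Among the droplet coat genes, Plin4 and Plin2 were both above TGF-α and control in cells given TGF-α plus gefitinib, while Plin3 differed less. Plin2 (chromosome 4, 86648386 to 86670060, minus strand, GRCm38) encodes the perilipin that coats droplets in most cell types. It was at 47.7 and 51.9 CPM with TGF-α plus gefitinib, 31.7 and 35.1 CPM with TGF-α and 35.9 and 34.7 CPM in control. The gefitinib libraries were the high ones and the other 4 overlapped. Plin2 rose 1.49-fold with TGF-α plus gefitinib over TGF-α (log2 0.57 ± 0.09 SE, edgeR adjusted p = 0.000106) and 1.41-fold over control (0.50 ± 0.09, edgeR adjusted p = 0.00185). For TGF-α against control the log2 difference was -0.08 ± 0.09, with a 95% interval of -0.27 to 0.11 (edgeR adjusted p = 0.560).

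Plin4 (chromosome 17, 56100591 to 56109803, minus strand) encodes a perilipin of small, early droplets that is abundant in fat cells. Its levels were 18.4 and 16.6 CPM with TGF-α plus gefitinib, 8.15 and 6.69 CPM with TGF-α and 6.32 and 6.43 CPM in control. No library outside the gefitinib group reached its lower value, and the TGF-α libraries were slightly above the controls. The mean was 2.35-fold higher than with TGF-α (log2 1.23 ± 0.15 SE) and 2.74-fold higher than in control (1.45 ± 0.15). The log2 difference of TGF-α from control was 0.22 ± 0.17.

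Plin3 (chromosome 17, 56277476 to 56292873, minus strand), on the same chromosome, encodes a perilipin that moves between cytosol and droplets. It was at 68.5 and 73.5 CPM with TGF-α plus gefitinib, 67.9 and 63.1 CPM with TGF-α and 60.1 and 56.3 CPM in control. The groups were ordered without overlap, but the gap between the first pair was less than 1 CPM. Plin3 rose 1.22-fold with TGF-α plus gefitinib over control (log2 0.29 ± 0.07, edgeR adjusted p = 0.0188). That call was lost in DESeq2 (adjusted p = 0.0651) and in edgeR without control library 1 (adjusted p = 0.0578), control library 2 (adjusted p = 0.177) or gefitinib library 2 (adjusted p = 0.125). The difference from TGF-α (0.12 ± 0.07, edgeR adjusted p = 0.230) and that of TGF-α from control (0.17 ± 0.07, edgeR adjusted p = 0.0845) did not pass.

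Of the intracellular carriers, Dbi and Fabp5 had about the same level or a lower one with TGF-α than in control, and a higher one with TGF-α plus gefitinib. Dbi (chromosome 1, 120113280 to 120121078, minus strand) encodes acyl-CoA binding protein, which holds long-chain acyl-CoA in the cytosol. It was at 181 and 204 CPM with TGF-α plus gefitinib, 97.1 and 99.0 CPM with TGF-α and 108 and 100.04 CPM in control. The gefitinib libraries were the high ones, and the TGF-α libraries fell just below the controls. The ratio was 1.96 to TGF-α (log2 0.97 ± 0.07 SE) and 1.85 to control (0.89 ± 0.07), and TGF-α against control gave -0.08 ± 0.07.

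Fabp5 (chromosome 3, 10012548 to 10016607, plus strand) encodes the epidermal-type FABP, which also carries retinoic acid. Its levels were 22.0 and 23.3 CPM with TGF-α plus gefitinib, 7.07 and 8.51 CPM with TGF-α and 10.5 and 11.8 CPM in control. The 3 groups did not overlap, with TGF-α lowest and TGF-α plus gefitinib highest. The mean with TGF-α plus gefitinib was 2.90-fold that with TGF-α (log2 1.54 ± 0.14 SE) and 2.02-fold that in control (1.01 ± 0.13). TGF-α against control was -0.52 ± 0.15, 1.44-fold lower.

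Fabp3 (chromosome 4, 130308595 to 130315463, plus strand) encodes the heart-type FABP and was near the limit of detection. It had 15 and 16 reads with TGF-α plus gefitinib, 3 and 8 with TGF-α and 12 and 10 in control. In CPM this was 1.03 and 1.28 with TGF-α plus gefitinib, 0.216 and 0.582 with TGF-α and 0.937 and 0.637 in control. The gefitinib libraries were highest and the TGF-α libraries lowest, without overlap. The log2 difference was 1.51 ± 0.56 SE against TGF-α (edgeR adjusted p = 0.0528) and 0.56 ± 0.50 against control (edgeR adjusted p = 0.559). That of TGF-α against control was -0.95 ± 0.60 (edgeR adjusted p = 0.269). Its exons overlap Zcchc17, on the opposite strand, by 81 bases, and the sources used here do not say whether counting used strand.

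Fabp3 and Fabp5 have processed pseudogenes in the table that are close enough to share reads. Along the coding sequence Fabp3-ps1 differs from Fabp3 at 3 of 402 bases (A40T, C297T and G334A, the Fabp3 base first, counted from the A of the start codon), an identity of 99.25%. Gm6166 differs from Fabp5 at 5 of 407 aligned bases (98.77%). The windows below show how few bases tell a gene from its copy. They run from coding position 270 to 359 for Fabp3 and from 180 to 269 for Fabp5, were read from GENCODE M21 transcripts on GRCm38, and have the differing bases in capitals.
Fabp3: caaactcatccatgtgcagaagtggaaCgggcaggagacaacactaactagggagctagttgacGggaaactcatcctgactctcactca
Fabp3-ps1 (chromosome 10, 86731987 to 86732388, minus strand): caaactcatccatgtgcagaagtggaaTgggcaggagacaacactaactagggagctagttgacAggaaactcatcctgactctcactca
Fabp5: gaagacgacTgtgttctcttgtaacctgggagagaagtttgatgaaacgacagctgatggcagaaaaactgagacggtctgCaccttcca
Gm6166 (chromosome 9, 57483963 to 57484371, plus strand): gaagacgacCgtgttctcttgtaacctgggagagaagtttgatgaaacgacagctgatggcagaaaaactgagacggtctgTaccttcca
Each pair differed at 2 of the 90 bases shown.

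Reads listed under the copies also differed between groups. Fabp3-ps1 was at 2.67 and 4.32 CPM with TGF-α plus gefitinib, 0.721 and 0.945 CPM with TGF-α and 1.33 and 1.21 CPM in control, in each library more than Fabp3 itself. Gm6166 was at 8.84 and 8.40 CPM with TGF-α plus gefitinib, 3.68 and 4.29 CPM with TGF-α and 3.04 and 2.61 CPM in control. For Gm14328, a second Fabp5 copy, the levels were 1.78 and 2.24 CPM with TGF-α plus gefitinib, 1.01 and 1.09 CPM with TGF-α and 1.56 and 1.27 CPM in control. In all 3 copies the gefitinib libraries were the highest, and only Gm6166 had its TGF-α libraries above control.

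Each gene was also summed with its copies, an alternative chosen after the data were seen. Fabp3 with its copy had 54 and 70 reads with TGF-α plus gefitinib, 13 and 21 with TGF-α and 29 and 29 in control. Most of these were listed under Fabp3-ps1, with 39 and 54, 10 and 13, and 17 and 19 reads in that order. The sum passed the threshold in the 2 comparisons with gefitinib, while Fabp3 alone passed in none. Its p-values follow in part from the later choice and make no call for Fabp3 itself. The sum was 3.73-fold higher than with TGF-α (log2 1.90 ± 0.34 SE, edgeR adjusted p = 0.000563) and 2.26-fold higher than in control (1.17 ± 0.32, edgeR adjusted p = 0.0307). TGF-α against control gave -0.73 ± 0.38 (edgeR adjusted p = 0.173). For Fabp5 with its 2 copies the sum was 2.59-fold that with TGF-α (log2 1.37 ± 0.11) and 2.16-fold that in control (1.11 ± 0.11). TGF-α was 1.202-fold lower than control for that sum (log2 -0.27 ± 0.12), against 1.44-fold lower for Fabp5 alone. How the reads divide between each gene and its copies was not tested.

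**Figure D2:**
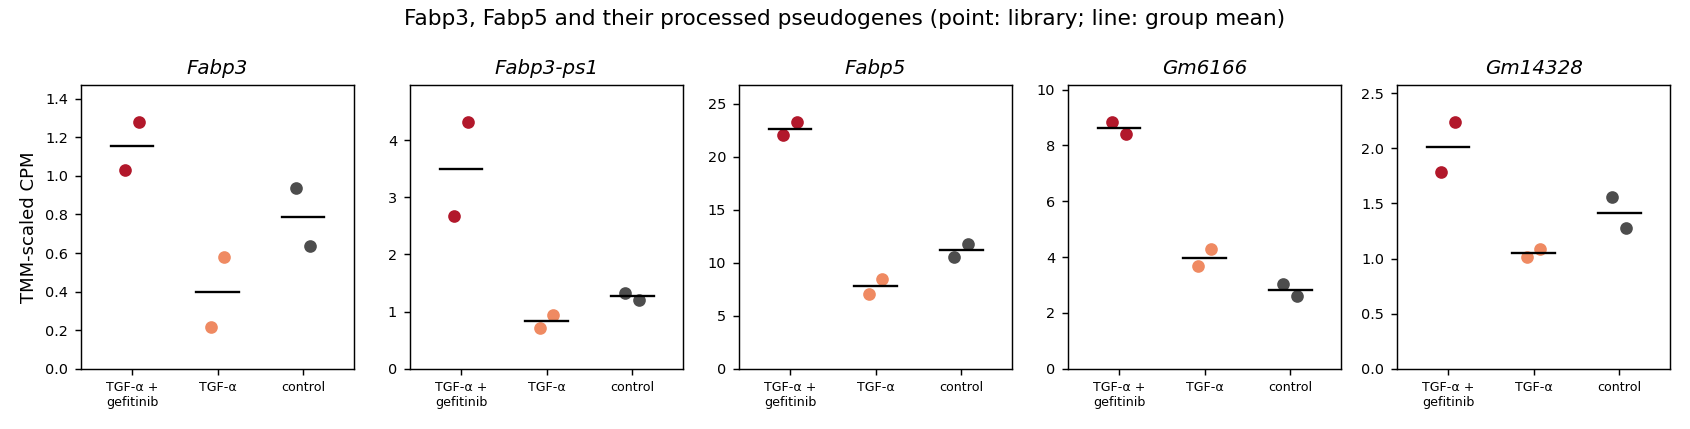
TMM-scaled CPM (linear axes from 0) of Fabp3, Fabp5 and their processed pseudogenes in TGF-α plus gefitinib, TGF-α and control; points are libraries and lines the means of 2. The gefitinib libraries are highest in each panel, and Fabp3-ps1 holds more reads than Fabp3.

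Lpl, whose product acts outside the cell, had a separate level in each group. Lpl (chromosome 8, 68880491 to 68907448, plus strand) encodes lipoprotein lipase, which releases fatty acids from triglyceride in lipoproteins. It was at 29.1 and 29.7 CPM with TGF-α plus gefitinib, 10.1 and 9.09 CPM with TGF-α and 17.6 and 22.9 CPM in control. The groups did not overlap, with TGF-α lowest and the controls the most spread. Lpl fell 2.12-fold with TGF-α against control (log2 -1.08 ± 0.14 SE, edgeR adjusted p = 2.753e-05) and was 3.07-fold higher with TGF-α plus gefitinib than with TGF-α (1.62 ± 0.14, edgeR adjusted p = 3.215e-07). It also rose 1.45-fold with TGF-α plus gefitinib over control (0.53 ± 0.12, edgeR adjusted p = 0.0135), a call lost without control library 1 (edgeR adjusted p = 0.153) or gefitinib library 2 (edgeR adjusted p = 0.0569).

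Cd36 (chromosome 5, 17781690 to 17888801, minus strand), the gene of a fatty acid uptake receptor of fat, muscle and macrophages, was close to absent. It had 1 and 3 reads with TGF-α plus gefitinib, 7 and 1 with TGF-α and 0 and 1 in control. It did not pass the filter, and no fold change is given. With no filter the edgeR adjusted p was 0.709 for TGF-α plus gefitinib against TGF-α, 0.766 against control, and 0.298 for TGF-α against control, so no difference was detectable at this depth.

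Pnpla2 (chromosome 7, 141455198 to 141460743, plus strand) encodes adipose triglyceride lipase, which takes the first fatty acid off stored triglyceride. It was at 23.5 and 19.7 CPM with TGF-α plus gefitinib, 15.2 and 13.9 CPM with TGF-α and 16.4 and 19.2 CPM in control. The groups were in the same order as for Lpl. The control library at 19.2 CPM was close to the lower gefitinib library, and that at 16.4 CPM was close to the higher TGF-α library. Pnpla2 rose 1.49-fold with TGF-α plus gefitinib over TGF-α (log2 0.57 ± 0.13 SE, edgeR adjusted p = 0.00291). The differences from control, 0.28 ± 0.12 for TGF-α plus gefitinib (edgeR adjusted p = 0.194) and -0.30 ± 0.13 for TGF-α (edgeR adjusted p = 0.105), did not pass.

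Pparg (chromosome 6, 115360951 to 115490399, plus strand), the gene of PPARγ, did not go above control with gefitinib. Its levels were 8.02 and 8.16 CPM with TGF-α plus gefitinib, 5.77 and 6.11 CPM with TGF-α and 9.13 and 7.90 CPM in control. The TGF-α libraries were low, and the gefitinib and control libraries overlapped. Pparg fell 1.43-fold with TGF-α against control (log2 -0.51 ± 0.18 SE, edgeR adjusted p = 0.0399). This call was lost in DESeq2 (adjusted p = 0.167) and in edgeR without control library 1 (adjusted p = 0.197), control library 2 (adjusted p = 0.0535), TGF-α library 1 (adjusted p = 0.154) or TGF-α library 2 (adjusted p = 0.0980). Against TGF-α, the gefitinib group differed by 0.44 ± 0.18 (edgeR adjusted p = 0.0699), and against control by -0.07 ± 0.17, with a 95% interval of -0.44 to 0.30 (edgeR adjusted p = 0.861).

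**Figure D3:**
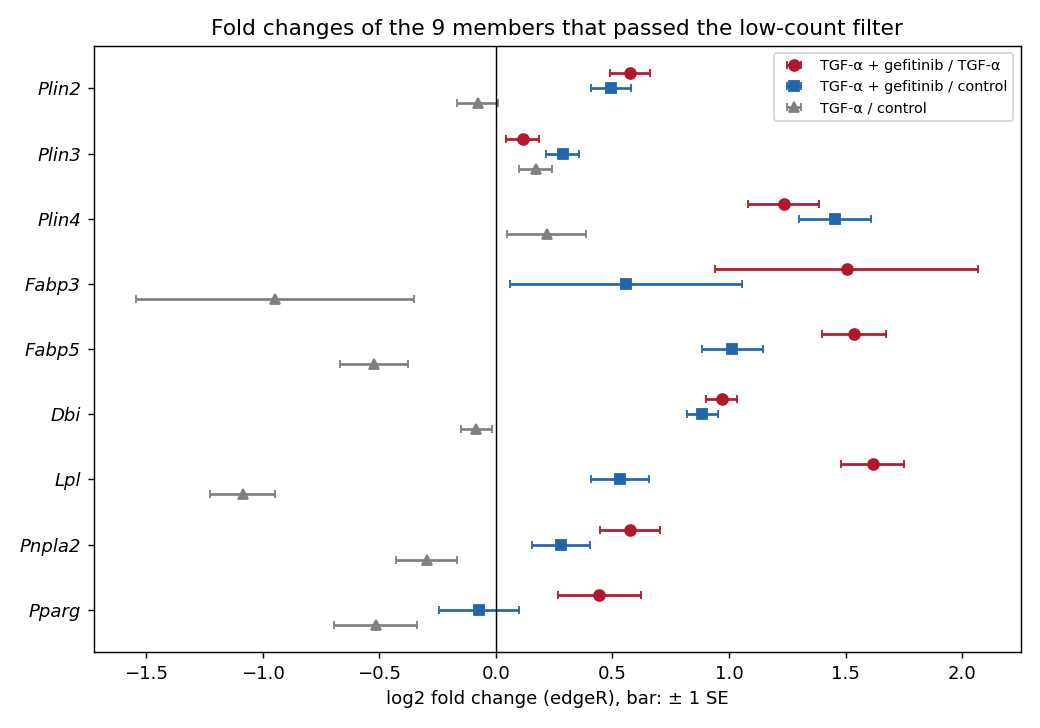
Log2 fold change of the 9 genes that passed the filter, with bars of 1 SE from the edgeR model, for TGF-α plus gefitinib over TGF-α, TGF-α plus gefitinib over control and TGF-α over control. Lpl and Fabp5 lie furthest right over TGF-α at 1.62 and 1.54, and Plin4 furthest right over control at 1.45. Plin4, Fabp5 and Dbi were picked for gefitinib libraries above control, so their places follow in part from that choice. Lpl and Fabp3 lie furthest left for TGF-α over control at -1.08 and -0.95.

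Levels per length show which carrier or coat was most abundant. In CPM per kilobase of the principal transcript, Dbi led every group, with 338 ± 28.9 for TGF-α plus gefitinib, 172 ± 2.35 for TGF-α and 183 ± 9.82 for control (SD, n = 2 each, as for the following levels). Plin2 followed with 26.4 ± 1.57 for TGF-α plus gefitinib, 17.7 ± 1.27 for TGF-α and 18.7 ± 0.449 for control. With TGF-α its libraries overlapped those of Plin3, whose mean was then the higher of the 2 and which was at 19.5 ± 0.963 for TGF-α plus gefitinib, 18.0 ± 0.921 for TGF-α and 15.97 ± 0.738 for control.

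Fabp5 was at 22.9 ± 0.912 CPM per kilobase for TGF-α plus gefitinib, 7.89 ± 1.03 for TGF-α and 11.3 ± 0.891 for control. That put it at rank 3 of the 10 genes with TGF-α plus gefitinib, rank 5 with TGF-α and rank 4 in control. With TGF-α its libraries overlapped those of Pnpla2.

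Pnpla2 was at 12.02 ± 1.47 CPM per kilobase for TGF-α plus gefitinib, 8.09 ± 0.522 for TGF-α and 9.90 ± 1.12 for control. Lpl had 7.15 ± 0.107 for TGF-α plus gefitinib, 2.33 ± 0.173 for TGF-α and 4.92 ± 0.922 for control, and Pparg had 4.58 ± 0.0556 for TGF-α plus gefitinib, 3.36 ± 0.135 for TGF-α and 4.82 ± 0.494 for control. Lpl and Pparg overlapped in control, and Pparg was the higher one with TGF-α and the lower one with TGF-α plus gefitinib. Plin4 was picked on its level with gefitinib and had the largest ratio of the droplet coats. It stayed the least abundant of the 3 perilipins per kilobase, at 3.03 ± 0.223 for TGF-α plus gefitinib, 1.29 ± 0.179 for TGF-α and 1.11 ± 0.0135 for control. Fabp3 was at 1.40 ± 0.216 for TGF-α plus gefitinib, 0.485 ± 0.314 for TGF-α and 0.956 ± 0.258 for control, and Cd36 below 0.1 in every group mean.

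Part of this order depends on the transcript length. Over the length of all exons, Dbi kept rank 1 and Cd36 rank 10 in each group, but Plin3 was at rank 2 and Plin2 at rank 3 in each, with no overlap between their libraries. Fabp5, with 3567 bases in all exons against 987 in the principal transcript, was then at rank 5 in each group. Lpl and Pparg did not overlap in control over that length, with Pparg the higher one. Reads listed under the copies of Fabp3 and Fabp5 are left out of both orders, and ranks with them added were not computed.

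Genes that act beside these 10 were taken from 8 lists of lipid handling. Across all tested genes the median log2 difference was 0.013 for TGF-α plus gefitinib against TGF-α, 0.0020 for TGF-α plus gefitinib against control and 0.0039 for TGF-α against control. In the first of these comparisons 17.0% of all tested genes were called higher and 16.9% lower. In the second 5.27% were higher and 4.26% lower, and in the third 15.9% were higher and 14.0% lower. The counts of each list stand beside these shares. As the lists were chosen with earlier results of these data known, no enrichment is read from them. In the list of triglyceride synthesis and droplet formation, 20 of 26 genes were tested. With TGF-α plus gefitinib against TGF-α, 9 were higher and 1 lower (median log2 0.15), with 0 lower without TGF-α library 2 or gefitinib library 2. Against control 3 were higher and 0 lower (median 0.07), with 0 higher without control library 1 and 1 without control library 2 or gefitinib library 1. For TGF-α against control 3 were higher and 7 lower (median -0.22). Bscl2, which encodes seipin, a protein of the site where droplets form, was at 81.1 and 83.6 CPM with TGF-α plus gefitinib, 56.5 and 50.4 CPM with TGF-α and 71.5 and 72.2 CPM in control. It was 1.54-fold higher with TGF-α plus gefitinib than with TGF-α (edgeR adjusted p = 5.819e-06) and 1.34-fold lower with TGF-α than in control (edgeR adjusted p = 0.000253). Soat1, which esterifies cholesterol for storage, averaged 77.0 ± 6.06 CPM with TGF-α plus gefitinib, 50.1 ± 5.31 CPM with TGF-α and 64.0 ± 0.835 CPM in control (SD, n = 2 each), and rose 1.54-fold over TGF-α (edgeR adjusted p = 2.755e-05). The acyltransferase genes Gpat4 and Agpat4, of glycerolipid synthesis, rose 1.29-fold and 1.31-fold over TGF-α (edgeR adjusted p = 0.000129 and 0.000291).

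In the lipolysis list, with 10 of 13 tested, 4 genes were higher and 0 lower with TGF-α plus gefitinib against TGF-α (median log2 0.09). That number was 2 without TGF-α library 1, TGF-α library 2 or gefitinib library 2. G0s2 and Abhd5, which encode an inhibitor and a coactivator of the Pnpla2 product, were the genes of the list with the smallest p. G0s2 was at 70.7 and 72.6 CPM with TGF-α plus gefitinib, 24.4 and 27.9 CPM with TGF-α and 67.0 and 62.2 CPM in control. It was 2.74-fold higher with TGF-α plus gefitinib than with TGF-α (edgeR adjusted p = 3.856e-09) and 2.46-fold lower with TGF-α than in control (edgeR adjusted p = 1.425e-08). Abhd5 was at 34.1 and 33.8 CPM with TGF-α plus gefitinib, 22.9 and 24.2 CPM with TGF-α and 24.4 and 22.8 CPM in control. Its gefitinib libraries stood above 4 others that overlapped, as for Plin2, with a 1.44-fold rise over TGF-α (edgeR adjusted p = 0.000506) and over control (edgeR adjusted p = 0.00240). Against control the list gave 2 higher and 0 lower for TGF-α plus gefitinib (median 0.09), with 1 higher without control library 1, control library 2 or gefitinib library 2. For TGF-α against control 1 was higher and 2 were lower (median -0.05), with 0 higher without TGF-α library 1. Lipa, the lysosomal acid lipase gene, was 1.27-fold higher with TGF-α plus gefitinib than in control (edgeR adjusted p = 0.0126), lost without control library 1, control library 2 or gefitinib library 2 (edgeR adjusted p = 0.0666 to 0.0878), and 1.25-fold higher with TGF-α than in control (edgeR adjusted p = 0.00630), lost without TGF-α library 1 (edgeR adjusted p = 0.0914). Faf2, an adaptor of protein degradation at droplets, was 1.19-fold lower with TGF-α than in control (edgeR adjusted p = 0.00320).

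The fatty acid uptake and activation list, 10 of 14 tested, had 1 gene higher and 5 lower with TGF-α plus gefitinib against TGF-α (median log2 -0.23). Without TGF-α library 2 there were 3 lower, and the 1 higher call was lost whichever library was left out. Set against control, TGF-α alone gave 6 higher and 1 lower (median 0.30), the 1 lower being lost without either control library or TGF-α library 1. Cav1, the gene of caveolin-1, a membrane protein that takes part in fatty acid uptake, was at 97.6 and 93.9 CPM with TGF-α plus gefitinib, 231.9 and 237 CPM with TGF-α and 124 and 122 CPM in control. It fell 2.45-fold with TGF-α plus gefitinib against TGF-α (edgeR adjusted p = 1.201e-10) and 1.29-fold against control (edgeR adjusted p = 0.000536), the 1 gene of the list called in that comparison (median 0.09). Acsl4, an acyl-CoA synthetase gene, fell 1.47-fold with TGF-α plus gefitinib against TGF-α (edgeR adjusted p = 0.00431), and Slc27a6, a fatty acid transporter gene, fell 1.66-fold (edgeR adjusted p = 0.00486). Slc27a1, another transporter gene, fell 1.34-fold (edgeR adjusted p = 0.0106), a call lost without TGF-α library 2 (edgeR adjusted p = 0.0732) or gefitinib library 2 (edgeR adjusted p = 0.0655). Acsl4 averaged 14.2 CPM with TGF-α plus gefitinib, 20.8 CPM with TGF-α and 11.5 CPM in control. In that order Slc27a6 averaged 5.84, 9.70 and 4.69 CPM and Slc27a1 20.9, 28.1 and 19.1 CPM.

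Among partners of lipoprotein lipase and lipoprotein receptors, 11 of 16 genes were tested, and 3 were higher and 4 lower with TGF-α plus gefitinib against TGF-α (median log2 0.00370). Lmf1, whose product helps lipases fold in the endoplasmic reticulum, was at 71.3 and 73.7 CPM with TGF-α plus gefitinib, 49.0 and 52.1 CPM with TGF-α and 62.6 and 61.5 CPM in control, the group order of Lpl. It was 1.43-fold higher with TGF-α plus gefitinib than with TGF-α (edgeR adjusted p = 2.426e-05). Lipg, the gene of endothelial lipase, was highest with TGF-α, with 2.18 ± 0.0811 CPM for TGF-α plus gefitinib, 9.59 ± 0.405 CPM for TGF-α and 2.76 ± 0.396 CPM for control (SD, n = 2 each). It fell 4.39-fold with TGF-α plus gefitinib against TGF-α (edgeR adjusted p = 3.890e-06). The lipoprotein receptor genes Lrp8 and Scarb1 were highest with TGF-α too. Lrp8 averaged 13.3 ± 1.97 CPM with TGF-α plus gefitinib, 33.5 ± 0.932 CPM with TGF-α and 12.6 ± 3.31 CPM in control (SD, n = 2 each), and fell 2.53-fold against TGF-α (edgeR adjusted p = 5.773e-06). Scarb1 averaged 70.7 ± 1.69 CPM with TGF-α plus gefitinib, 101.8 ± 1.87 CPM with TGF-α and 64.7 ± 5.35 CPM in control (SD, n = 2 each), and fell 1.44-fold against TGF-α (edgeR adjusted p = 2.259e-05). Angptl4, an inhibitor of lipoprotein lipase and a PPAR target, was named after its values were seen and averaged 5.98 ± 0.130 CPM with TGF-α plus gefitinib, 9.09 ± 0.206 CPM with TGF-α and 9.05 ± 0.438 CPM in control (SD, n = 2 each). It was 1.52-fold lower with TGF-α plus gefitinib than with TGF-α (edgeR adjusted p = 0.0127), a call lost in DESeq2 (adjusted p = 0.0682) and without TGF-α library 2 (edgeR adjusted p = 0.0597) or gefitinib library 1 (edgeR adjusted p = 0.0546). Against control TGF-α plus gefitinib gave 2 higher and 1 lower (median 0.06), and 1 of the 2 higher was lost whichever library was left out. The 1 lower was Angptl4 (edgeR adjusted p = 0.0382), also lost whichever library was left out (edgeR adjusted p = 0.0509 to 0.183). With TGF-α alone against control 4 were higher and 1 lower (median 0.00385), with 2 lower without control library 1 or either gefitinib library.

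The list of PPAR and adipogenic transcription factors, 18 of 19 tested, gave 2 higher and 5 lower with TGF-α plus gefitinib against TGF-α (median log2 -0.03), and 3 lower without TGF-α library 1. Ppargc1a, a coactivator of PPARγ and of mitochondrial genes, had 47 and 55 reads with TGF-α plus gefitinib, 13 and 6 with TGF-α and 36 and 24 in control, and was 5.45-fold higher with TGF-α plus gefitinib than with TGF-α (edgeR adjusted p = 0.000463). Klf15, an adipogenic factor, was at 32.5 and 30.1 CPM with TGF-α plus gefitinib, 12.6 and 15.6 CPM with TGF-α and 24.1 and 25.1 CPM in control, a 2.22-fold rise over TGF-α (edgeR adjusted p = 2.241e-06). Cebpb, an early adipogenic factor, fell 1.70-fold in the same comparison (edgeR adjusted p = 2.783e-06). It averaged 39.6 CPM with TGF-α plus gefitinib, 67.2 CPM with TGF-α and 37.7 CPM in control. Against control TGF-α plus gefitinib gave 0 higher and 1 lower (median 0.06), the lower one being the corepressor gene Ncor1 at 1.19-fold (edgeR adjusted p = 0.00644). That count became 0 without either control library or gefitinib library 2 but 2 and 3 without TGF-α library 1 and TGF-α library 2, and 3 without gefitinib library 1. With TGF-α alone against control 2 were higher and 2 lower (median -0.00549), with 1 lower without control library 1 or TGF-α library 2.

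Over all tested genes 17.0% were higher and 16.9% lower with TGF-α plus gefitinib against TGF-α, as given above. Fatty acid oxidation genes, all 29 tested, had calls in both directions. With TGF-α plus gefitinib against TGF-α 5 were higher and 4 lower (median log2 -0.03), with 1 higher without TGF-α library 2 and 3 without gefitinib library 1. Set against control, TGF-α alone gave 8 higher and 1 lower (median 0.11), with 5 higher without either control library or TGF-α library 2. The 1 lower was lost without control library 1 or either TGF-α library and became 2 without gefitinib library 2. Cpt1a, whose product controls entry of fatty acids into mitochondria, was 1.34-fold lower with TGF-α plus gefitinib than with TGF-α (edgeR adjusted p = 0.00155), and Acadl, an acyl-CoA dehydrogenase gene, 1.37-fold lower (edgeR adjusted p = 0.000412). Cpt2, the partner of Cpt1a on the inner mitochondrial membrane, was 1.41-fold lower (edgeR adjusted p = 0.000200). Cpt1a averaged 29.3 CPM with TGF-α plus gefitinib, 39.2 CPM with TGF-α and 27.7 CPM in control. In that order Acadl averaged 46.3, 63.3 and 41.6 CPM and Cpt2 39.9, 56.3 and 44.3 CPM. None of these genes was called for TGF-α plus gefitinib against control (edgeR adjusted p = 0.273 to 0.644). Against control TGF-α plus gefitinib gave 2 higher and 0 lower (median 0.12), with 0 higher without control library 2 and 1 without either gefitinib library. Other acyl-CoA binding proteins, 5 of 6 tested, gave 1 higher and 1 lower with TGF-α plus gefitinib against TGF-α (median -0.00805). Dbi, picked on its level with gefitinib, was 1.96-fold higher. The 1 higher was Acbd6, at 1.18-fold (edgeR adjusted p = 0.0430), lost without either TGF-α or either gefitinib library (edgeR adjusted p = 0.0951 to 0.174). The 1 lower was Scp2, a peroxisomal lipid carrier gene, which fell 1.40-fold (edgeR adjusted p = 8.531e-05). None of the 5 was called for TGF-α plus gefitinib against control (median -0.05), and TGF-α against control gave 1 higher and 0 lower (median -0.06).

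**Figure D4:**
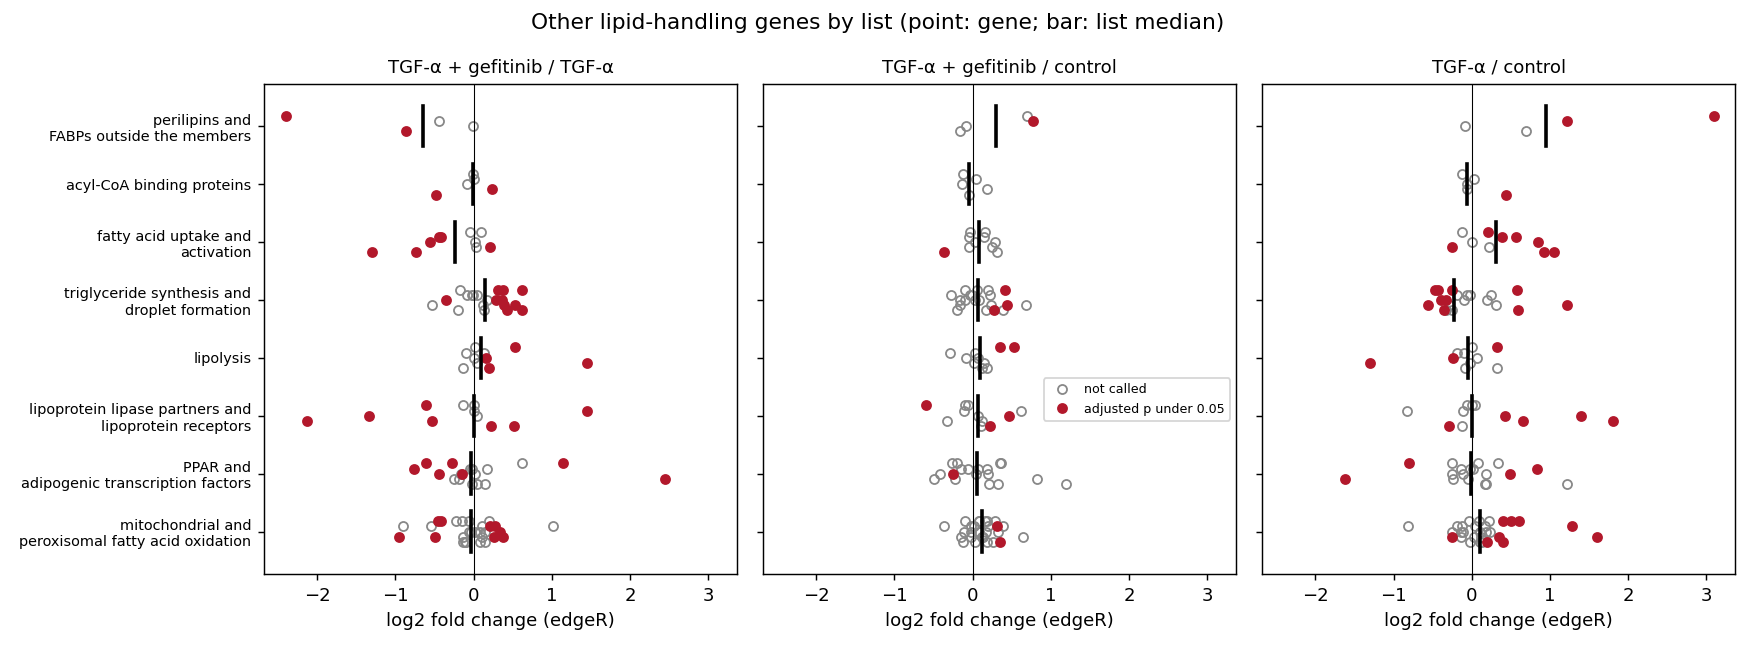
Log2 fold change of the tested genes of 8 lipid-handling lists in the 3 comparisons, with TGF-α plus gefitinib over TGF-α on the left, TGF-α plus gefitinib over control in the middle and TGF-α over control on the right; points are genes, filled where the edgeR adjusted p was under 0.05, and bars are list medians. The triglyceride and droplet list has 9 filled points right of 0 over TGF-α, and the uptake list has 5 left of 0.

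Markers of other cells that a culture from the epiphysis could hold were low. In bulk RNA fewer cells of a type and less RNA per cell cannot be told apart, and the part of other cells in the results above was not tested. The 10 adipocyte markers summed to 10.7 to 10.8 CPM with TGF-α plus gefitinib, 9.23 to 11.9 CPM with TGF-α and 12.4 to 13.2 CPM in control. Adipoq had at most 19 reads and Lep at most 1 in any library, and of the 4 adipocyte markers tested 0 were called in any comparison. Over all tested genes 34.0% were called for TGF-α plus gefitinib against TGF-α, 9.52% against control and 29.9% for TGF-α against control. Fabp4, the fat cell FABP, was at 3.84 and 3.52 CPM with TGF-α plus gefitinib, 3.10 and 4.29 CPM with TGF-α and 4.29 and 3.57 CPM in control. Its groups overlapped. Those of Fabp5 did not, but Fabp5 was picked on its level with gefitinib.

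Macrophage markers, 12 in number, summed to 7.61 to 9.75 CPM with TGF-α plus gefitinib, 12.98 to 16.9 CPM with TGF-α and 5.70 to 6.37 CPM in control. Adgre1, Ptprc, C1qa, C1qb, Itgam, Fcgr1 and Cx3cr1 were at 0 in every library. Of the 4 macrophage markers tested, 1 was higher and 2 lower with TGF-α plus gefitinib against TGF-α, 0 were called against control, and 2 were higher and 1 lower with TGF-α against control. Over all tested genes the shares were 17.0% higher and 16.9% lower, 9.52% called either way, and 15.9% higher and 14.0% lower in that order. Cd68 averaged 2.58 ± 0.542 CPM with TGF-α plus gefitinib, 8.98 ± 1.08 CPM with TGF-α and 1.54 ± 0.523 CPM in control (SD, n = 2 each), 5.70-fold higher with TGF-α than in control (edgeR adjusted p = 5.864e-06) and 3.50-fold lower with TGF-α plus gefitinib than with TGF-α (edgeR adjusted p = 6.907e-05). Cd14 was 3.40-fold higher with TGF-α than in control (edgeR adjusted p = 0.00120), and Lyz2 was 2.99-fold lower (edgeR adjusted p = 0.0218), a call lost without control library 1 (edgeR adjusted p = 0.133) or TGF-α library 1 (edgeR adjusted p = 0.190).

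Endothelial markers, 8 in number with 5 at 0 throughout and 0 tested, summed to 0.480 to 0.617 CPM with TGF-α plus gefitinib, 0.145 to 0.649 CPM with TGF-α and 0.156 to 0.255 CPM in control. The 9 skeletal muscle markers summed to 5.92 to 6.78 CPM with TGF-α plus gefitinib, 5.45 to 6.13 CPM with TGF-α and 8.90 to 8.98 CPM in control. Tnnt3, 1 of the 2 tested, was not called in any comparison. Its log2 difference was -0.56 for TGF-α plus gefitinib against TGF-α (edgeR adjusted p = 0.146). For TGF-α against control it was -0.14 (edgeR adjusted p = 0.734). Acta1, 1 of the 2 muscle markers tested, was 2.97-fold lower with TGF-α than in control (edgeR adjusted p = 0.000879) and 2.32-fold higher with TGF-α plus gefitinib than with TGF-α (edgeR adjusted p = 0.00646), the second call being lost without TGF-α library 2 (edgeR adjusted p = 0.0503) or gefitinib library 1 (edgeR adjusted p = 0.0547).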

How the data were processed

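The authors deposited 1 table of raw whole-number read counts per gene, with 1 column for each of 6 Ion Proton libraries. GRCm38 was the genome build in the submitters' processing notes. Aligner, counter, annotation and use of strand: not given in the sources used here. The 10 genes and the gene lists were chosen with earlier results of these data known.

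The counts were filtered and fitted with edgeR 4.0.16 (R 4.3.3). A minimum count of 10 in filterByExpr kept 15362 genes. TMM scaling was followed by glmQLFit and glmQLFTest, with group as the single factor over all 6 libraries and 3 residual degrees of freedom. P-values were two-sided and adjusted by Benjamini-Hochberg over every gene that passed, with a call at under 0.05. Levels (CPM) are counts relative to the library total adjusted by TMM. The SE is the log2 fold change over the root of the quasi-likelihood F, and intervals cover 95%. The model was tested on simulated data. A coefficient of variation of 6.08% was estimated from the common dispersion, and replicate libraries differed beyond counting noise (chi-square per degree of freedom 3.83 for TGF-α plus gefitinib, 3.57 for TGF-α and 3.03 for control).

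All 10 genes are named, and from each list up to 4 called genes with the smallest p, with exceptions said beside them. Alternatives were DESeq2 1.42.0, another scaling, other filters, a 1.2-fold test, a replicate block and each library left out. Copies were sought with blastn 2.17.0 (at least 95% identity over 150 bases) in GENCODE M21, which also gave positions and lengths. Promoters are from RefSeq, GRCm38.p6. A promoter sequence and some list genes are not reported here.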

Additional observations from a re-analysis of the deposited data

How the results depend on the processing

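For TGF-α plus gefitinib against TGF-α, the count of called genes among the 6 tested was 3 under each alternative listed above. Fabp3 alone was not called. The sum of Fabp3 and its copy, chosen after the data were seen, passed the threshold here (edgeR adjusted p = 0.000563). That sum passed against control as well (edgeR adjusted p = 0.0307), and the counts of called genes leave it out. TGF-α against control gave 2, but 1 in DESeq2, with the replicate block and in the test against a 1.2-fold change, and 1 to 2 with a library left out. TGF-α plus gefitinib against control gave 3, but 0 in the 1.2-fold test and 1 to 3 with a library left out. Over all genes the 1.2-fold test called 2669 for TGF-α plus gefitinib against TGF-α, 277 for TGF-α plus gefitinib against control and 2319 for TGF-α against control. DESeq2 called 946 for TGF-α plus gefitinib against control. With a library left out the range was 3703 to 4950, 649 to 1291 and 3297 to 4767 in the same order of comparisons. The log2 difference of Pparg between TGF-α plus gefitinib and control reversed to 0.034 without control library 1, in a range of -0.18 to 0.034 with a library left out. The cause of these shifts was not tested.

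Same-numbered libraries did not deviate together (r = -0.0228 for TGF-α plus gefitinib with TGF-α, 0.0108 for TGF-α plus gefitinib with control and 0.00340 for TGF-α with control), so the numbers were not taken as pairs. With the replicate block 5042, 1335 and 4450 genes were called in the same order, and among the 6 genes 3, 3 and 1, Pparg being the call lost (edgeR adjusted p = 0.0534). Scaling by the RLE method moved the median of all genes by -0.00806 to -0.00326 and reversed 0 of the called list genes. Depth limits Fabp3 and Cd36, which had at most 16 and 7 reads in a library.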

Other observations

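Retinoid carriers of the FABP superfamily had a different group order from Fabp5, which was picked on its level with gefitinib and also binds retinoic acid. Crabp1 had 10 and 10 reads with TGF-α plus gefitinib, 44 and 65 with TGF-α and 4 and 9 in control. It fell 5.29-fold with TGF-α plus gefitinib against TGF-α (edgeR adjusted p = 0.000262) and was 8.56-fold higher with TGF-α than in control (edgeR adjusted p = 5.457e-05). Crabp2 was at 6.24 and 7.44 CPM with TGF-α plus gefitinib, 8.87 and 9.67 CPM with TGF-α and 3.90 and 4.08 CPM in control, and was 2.32-fold higher with TGF-α than in control (edgeR adjusted p = 0.000206). With TGF-α plus gefitinib Crabp2 remained 1.70-fold above control (edgeR adjusted p = 0.0252), a call lost in DESeq2 (adjusted p = 0.0897) and in edgeR without control library 1 (adjusted p = 0.118), control library 2 (adjusted p = 0.110) or gefitinib library 2 (adjusted p = 0.152). Of the 13 perilipins, FABPs and related carriers outside the 10 genes, 4 were tested. With TGF-α plus gefitinib against TGF-α 0 were higher and 2 lower (median log2 -0.65), and with DESeq2, or without either TGF-α library or gefitinib library 2, 1 was lower. TGF-α plus gefitinib against control gave 1 higher (median 0.30) and TGF-α against control 2 higher (median 0.96), with 0 lower in both. Over all tested genes 17.0% were higher and 16.9% lower in the first of these 3 comparisons. The shares were 5.27% higher and 4.26% lower in the second, and 15.9% higher and 14.0% lower in the third.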
